A study of Mus musculus with 8 samples.

Results

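Calmodulin and the kinases that calmodulin switches on were followed at the mRNA level in group 2 innate lymphoid cells (ILC2s) treated with the Piezo1 agonist Yoda1. The 9 genes are Calm2 and Calm3 (calmodulin), Camkk2 (a CaM kinase kinase), Camk1, Camk1d and Camk4 (kinases that CaM kinase kinases act on), and Camk2b, Camk2d and Camk2g (CaMKII). They were taken by gene symbol from a count table of 23183 genes, and all 9 were among the 12239 genes with enough counts to be tested. The rule used the symbols and no measured value, but the genes were chosen with earlier results of these data known.

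The data are 8 bulk mRNA-seq libraries from ILC2s of the murine lung kept in culture, 4 treated with 5 µM Yoda1 and 4 with the vehicle, 0.1% DMSO, each for 3 h. Both groups were labelled as C57BL/6, given as C57BL/6 J in the methods of the study, from mice of either sex aged 6 to 10 weeks. The mice of both groups had received IL-33 before the lung cells were taken, the ILC2s were enriched with magnetic beads, and both groups grew with IL-2, IL-7 and IL-33, so that the DMSO cells are cytokine-stimulated and not resting. Whether the 4 libraries of a group came from separate mice or separate cultures is not stated, and p-values then measure the spread between these libraries, which may be technical.

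Calmodulin is a small protein that binds calcium through EF-hand loops and, once loaded, wraps around short helices of its target enzymes and opens their active sites. CaM kinase kinases then phosphorylate CaMKI and CaMKIV to raise their activity further, and CaMKII assembles into rings whose subunits phosphorylate one another and can stay active after calcium has fallen. Yoda1 opens Piezo1, a channel of the plasma membrane that lets calcium in when the membrane is stretched, and CaMKIV and calmodulin are well known in lymphocytes for carrying calcium signals to transcription.

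Library totals ran from 13435521 to 18216729 counts with DMSO and from 12438009 to 19534653 with Yoda1. All 12 listed ILC2 markers were expressed, at a summed level of 16178 to 16802 CPM (counts per 1000000 counts of the scaled library) with DMSO and 18215 to 18603 with Yoda1. The 8 T cell markers summed to 89.4 to 95.7 CPM with DMSO and 98.0 to 109 with Yoda1, and the 5 NK or ILC1 markers to 431 to 488 and 497 to 525. The groups did not overlap in any of these 3 sums. Of the ILC2 markers Il1rl1, Thy1, Il13, Il5 and Areg passed the test as higher and Icos as lower. Il13 alone was at 5431 CPM with DMSO and 6667 CPM with Yoda1. The log2 changes of Gata3, Rora and Klrg1 were 0.00020, 0.034 and 0.027. Those of Il7r, Il2ra and Il17rb were 0.11, 0.086 and -0.14, and none of these genes passed. Cd28 of the T cell list and Eomes, Tbx21 and Prf1 of the NK or ILC1 list passed as higher. No other T cell marker passed. Cd3e and Cd8b1 had log2 changes of -0.16 and -0.13, and Cd3d, Cd3g, Cd4, Cd8a and Cd5 were above 0. The other NK or ILC1 markers, Ncr1 and Klrb1c, had log2 changes of -0.23 and -0.21 and did not pass. Prf1 alone was at 385 CPM with DMSO and 423 CPM with Yoda1, most of the NK or ILC1 sum. The part of all these markers in the results was not tested. The other lists held no call, and the ranges of their sums overlapped between the groups. Of the 5 B cell markers Ms4a1 and Pax5 had at most 3 counts in any library and Cd79b had 70 to 128. Of the 7 of macrophages or dendritic cells Lyz2, Csf1r and Mrc1 had at most 3, Cd68 29 to 62 and Itgax 81 to 152. Platelet and mast cell or basophil markers reached at most 15 (Itga2b) and 45 counts (Cpa3 and Mcpt8). Among lung epithelial and endothelial markers Sftpc and Scgb1a1 had 0 counts, Epcam had 16 to 33 and Cdh5 at most 3. Pecam1 stood at 220.2 CPM with DMSO and 219 CPM with Yoda1.

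Yoda1 against DMSO called none of the 9 genes at the threshold of 0.05, with 0 called higher and 0 called lower (edgeR, quasi-likelihood test, with p-values adjusted by Benjamini and Hochberg over the 12239 genes). Over all genes tested the same rule called 10.9%, made up of 6.04% higher and 4.84% lower with Yoda1. At an unadjusted p under 0.05, 3 of the 9 were past the line (Calm2, Calm3 and Camk1d, all lower with Yoda1), against 25.3% of all genes. DESeq2 and limma-voom also called 0 of the 9, and each had 2 at an unadjusted p under 0.05. No gene of the 9 had its Yoda1 libraries all on one side of its DMSO libraries, which 15.5% of all genes tested had. The log2 fold changes of the 9 ran from -0.12 to 0.25 with a median of -0.083, 3 above 0 and 6 below, and over all genes tested the median was -0.0053 with 48.4% above 0. Bulk RNA does not tell apart fewer cells that express a gene and less of its RNA per cell.

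**Figure D1:**
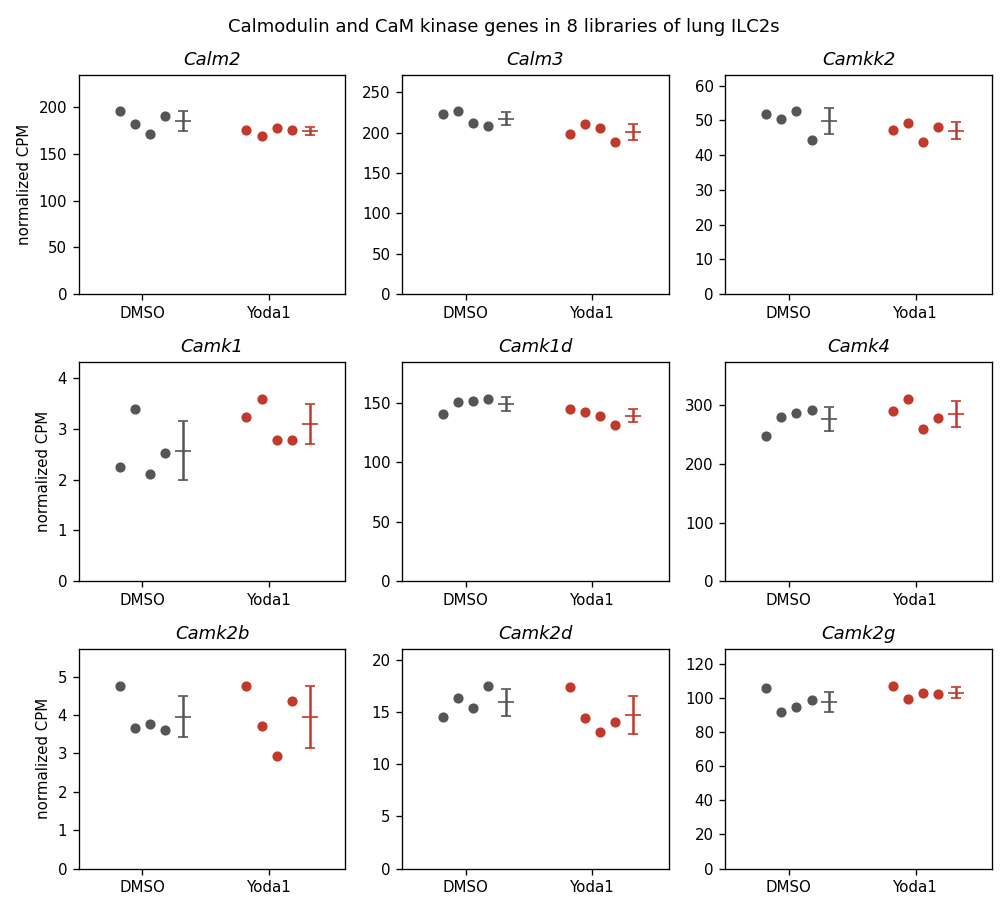
Normalized CPM (vertical axes, each from 0) of the 9 genes, with 1 point for each of the 4 DMSO libraries in grey and the 4 Yoda1 libraries in red, and a bar for the mean ± SD of each group. The ranges of the groups overlap in all 9 panels, and the 3 genes with the fewest counts, Camk1, Camk2b and Camk2d, show the widest relative scatter.

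Calm2 and Calm3 encode the same calmodulin protein. Their coding sequences, translated from GENCODE M21 (GRCm38, mm10), were each 447 bases long without the stop codon, and the 149 encoded residues were 100% identical. At the DNA level, however, 78 of the 447 bases differed. The stretch that encodes the first calcium-binding loop (coding bases 61 to 96, residues 21 to 32 counted from the first methionine) is shown to make visible why reads from these genes can be told apart although the protein is the same. Capitals mark the 7 of its 36 bases that differ between the genes, and each stretch lies within 1 coding exon and is written 5′ to 3′ on the strand of its gene.
Calm2, chr17:87435873-87435908, minus strand: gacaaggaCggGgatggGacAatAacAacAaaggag
Calm3, chr7:16917667-16917702, minus strand: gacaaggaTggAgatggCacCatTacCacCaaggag
All of the capitals stand at codon positions that leave the amino acid unchanged. Over the whole principal transcripts, a search for alignments without a mismatch found 0 windows of 50 bases of Calm2 or Calm3 in another gene's transcript. Identical stretches inside a longer, near-identical copy could be missed by this search. It therefore does not show that every read of these genes is unique.

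Calm3 (chromosome 7, 16915379 to 16924114, minus strand) came closest to a call. Its level was 223, 226, 212 and 209 CPM in DMSO libraries 1 to 4 and 198, 211, 206 and 188 CPM in Yoda1 libraries 1 to 4. Of the 4 Yoda1 libraries 3 lay below the lowest DMSO library, and Yoda1 library 2 lay just above it. The means were 217 ± 8.45 and 201 ± 9.84 CPM (SD, n = 4 each), a difference of -7.82% and a log2 change of -0.12 (SE 0.040, 95% interval -0.20 to -0.036). The p of edgeR's quasi-likelihood test was 0.00597, which became 0.0532 after adjustment, and the two-sided exact permutation test of 4 against 4 libraries gave p = 0.0571, where the smallest p it allows is 0.0286. The call turned on the scaling, the filter and single libraries. Calm3 passed at an adjusted p of 0.0180 with library size only, 0.0125 with upper-quartile factors, 0.0387 with no filter on low counts, 0.0499 with at least 10 counts in every library, 0.0443 without DMSO library 4 and 0.0261 without Yoda1 library 2 (edgeR), and it was at 0.242 without Yoda1 library 4.

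Calm2 (chromosome 17, 87433412 to 87446935, minus strand) was at 195, 182, 171 and 191 CPM with DMSO and 175, 169, 178 and 176 CPM with Yoda1. The Yoda1 libraries sat close together inside the lower part of the DMSO range, apart from library 2, which was the lowest of all 8. The means of 185 ± 10.8 and 174 ± 3.94 CPM (SD, n = 4 each) gave a log2 change of -0.083 (SE 0.040, 95% interval -0.16 to -0.00048, edgeR p of 0.0488 and adjusted p of 0.195, exact permutation p of 0.171). Both genes thus had values below 0 and neither passed the test. Summed over Calm2 and Calm3 the level was 402 CPM (SD 15.1, n = 4) in the DMSO libraries and 375 CPM (SD 8.52, n = 4) in the Yoda1 libraries, with ranges of 383 to 418 and 364 to 384 CPM that overlapped by a narrow margin. The ratio of Calm3 to Calm2 counts, which no scaling between libraries can change, was 1.18 (SD 0.0741, n = 4) and 1.15 (SD 0.0744, n = 4) in the same order, with ranges of 1.10 to 1.24 and 1.07 to 1.25.

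CaMKII is encoded by 4 genes that differ in tissue. Camk2a, the form known best from forebrain neurons, had 0 to 3 counts in any library and was not tested, while Camk2b, Camk2d and Camk2g were all measured. Between the principal proteins of these 3, 87.6% to 88.3% of the residues aligned without a gap were identical. Residues without a partner in the other protein are left out of this share. The site at which neighbouring subunits phosphorylate one another, the threonine at residue 287 of all 3, is the feature that lets CaMKII outlast a calcium pulse. The 30 bases that encode residues 284 to 293 (coding bases 850 to 879) are shown to compare the members around it, with capitals for the 13 bases that are not shared by all 3 genes, 5′ to 3′ on the strand of each gene and within 1 exon (GRCm38).
Camk2b, chr11:5988979-5989008, minus strand: AgAcaGgagacTgtGgaAtgTCtGAAGaaG
Camk2d, chr3:126797732-126797761, plus strand: AgGcaGgagacTgtAgaCtgCTtGAAGaaA
Camk2g, chr14:20760421-20760450, minus strand: CgCcaAgagacGgtAgaGtgCTtACGCaaA
Unlike the calmodulin loops, these stretches do not all encode the same residues.

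Camk2g (chromosome 14, 20734875 to 20794088, minus strand) had the highest level per length of the CaMKII genes. It was at 105, 91.8, 94.4 and 99.0 CPM with DMSO and 107, 99.3, 103 and 102 CPM with Yoda1. The highest DMSO library, library 1, exceeded 3 of the 4 Yoda1 libraries, and the other DMSO libraries lay below all of them. The means of 97.6 ± 6.00 and 103 ± 3.21 CPM (SD, n = 4 each) gave a log2 change of 0.074 (SE 0.044, 95% interval -0.016 to 0.16, edgeR adjusted p of 0.304, exact permutation p of 0.171).

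Camk2d (chromosome 3, 126596302 to 126846326, plus strand), the CaMKII form studied most in the heart, was at 14.5, 16.3, 15.3 and 17.5 CPM with DMSO and 17.4, 14.4, 13.0 and 14.0 CPM with Yoda1, from 174 to 298 counts. Yoda1 library 1 lay among the highest DMSO libraries and the other 3 Yoda1 libraries lay below every DMSO library. The log2 change was -0.12 (SE 0.088, 95% interval -0.30 to 0.060, edgeR adjusted p of 0.427, exact permutation p of 0.257). It was -0.20 without Yoda1 library 1, -0.071 without Yoda1 library 3 and -0.075 without DMSO library 4, with no call in any of these fits.

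Camk2b (chromosome 11, 5969644 to 6066362, minus strand), a form known from brain and muscle, rested on 39 to 85 counts a library, with 4.76, 3.67, 3.77 and 3.62 CPM with DMSO and 4.76, 3.71, 2.92 and 4.37 CPM with Yoda1. The means were 3.96 ± 0.538 and 3.94 ± 0.806 CPM (SD, n = 4 each), and the log2 change was -0.0014 (SE 0.16, edgeR adjusted p of 0.997, exact permutation p of 0.943). The 95% interval ran from -0.33 to 0.33, that is, from -20.4% to 25.3%, and these libraries do not exclude a change within these bounds. The coefficient of variation between libraries was 13.6% with DMSO, where counting error alone gives 12.7%, and 20.4% with Yoda1, where it gives 13.2%.

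Camkk2 (chromosome 5, 122731170 to 122779409, minus strand) encodes the CaM kinase kinase that also phosphorylates AMP-activated kinase. Its level was 51.9, 50.5, 52.6 and 44.5 CPM with DMSO and 47.1, 49.2, 43.7 and 48.1 CPM with Yoda1. Of the DMSO libraries 3 lay above every Yoda1 library, whereas DMSO library 4 was lower than 3 of the Yoda1 libraries. The means of 49.9 ± 3.70 and 47.0 ± 2.37 CPM (SD, n = 4 each) gave a log2 change of -0.085 (SE 0.055, 95% interval -0.20 to 0.027, edgeR adjusted p of 0.353, exact permutation p of 0.286). Camkk1, the other CaM kinase kinase and not a member of the set, was read at 58 to 114 counts and at 5.32, 6.24, 5.95 and 5.91 CPM with DMSO against 4.84, 4.99, 4.35 and 4.68 CPM with Yoda1. All 4 Yoda1 libraries lay below all 4 DMSO libraries, and 15.5% of all genes tested had no overlap of the groups in either direction. Such a separation always gives the smallest exact permutation p, 0.0286. The log2 change of -0.31 (SE 0.12) did not pass after adjustment (edgeR adjusted p of 0.105).

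Camk1d (chromosome 2, 5293457 to 5714515, minus strand) encodes CaMKI delta and had the higher level per length of the CaMKI genes in the set. It was at 140.2, 150.2, 151 and 154 CPM with DMSO and 145, 142, 139 and 131 CPM with Yoda1. DMSO library 1 was lower than 2 of the Yoda1 libraries, and the other 3 DMSO libraries were above all 4. The means of 149 ± 5.87 and 139 ± 5.80 CPM (SD, n = 4 each) gave a difference of -6.48% and a log2 change of -0.097 (SE 0.040, 95% interval -0.18 to -0.014). The adjusted p of edgeR's test was 0.124, from an unadjusted 0.0229, and the exact permutation test gave p = 0.0857. Without DMSO library 1 the edgeR adjusted p was 0.0350, with upper-quartile factors it was 0.0353, and without Yoda1 library 4 it was 0.392.

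Camk1 (chromosome 6, 113334124 to 113343984, minus strand), which encodes CaMKI alpha, had 33 to 62 counts a library, at 2.25, 3.40, 2.11 and 2.51 CPM with DMSO and 3.23, 3.59, 2.77 and 2.78 CPM with Yoda1. The 4 Yoda1 libraries lay above 3 of the DMSO libraries, and DMSO library 2 lay among them. Its log2 change of 0.25 was the highest of the set and also the least certain (SE 0.18, 95% interval -0.13 to 0.63, edgeR adjusted p of 0.423, exact permutation p of 0.143). Without DMSO library 2 it was 0.43, and it was 0.17 without DMSO library 3 or without Yoda1 library 2, none of them past the threshold. Exons of Camk1 share 232 bases with Ogg1 on the opposite strand, 3.88% of its exon length, and the strand setting of the counting is not given in the sources used here.

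Camk4 (chromosome 18, 32934931 to 33191228, plus strand) encodes CaMKIV, a nuclear kinase known from thymocytes, T cells and neurons that phosphorylates CREB. It was at 247, 279, 287 and 291 CPM with DMSO and 290.5, 311, 260.0 and 277 CPM with Yoda1, from 3468 to 5392 counts. The groups overlapped over most of their range. The means were 276 ± 20.3 and 285 ± 21.6 CPM (SD, n = 4 each), with a log2 change of 0.045 (SE 0.059, 95% interval -0.082 to 0.17, edgeR adjusted p of 0.700, exact permutation p of 0.571). Libraries of a group varied by 7.35% with DMSO and 7.57% with Yoda1 (coefficient of variation), where counting error alone gives 1.52% and 1.53%. The summed T cell markers (Cd3d, Cd3e, Cd3g, Cd4, Cd8a, Cd8b1, Cd5 and Cd28) stood at 89.4 to 95.7 CPM with DMSO and at 98.0 to 109 CPM with Yoda1. Cd3g had the most counts, 600 to 1023 a library, and Cd28 had 255 to 447, while Cd8b1 and Cd5 had at most 16. Of these markers only Cd28 passed the test, and Cd3e and Cd8b1 had log2 changes below 0. The part of the T cell markers in the level of Camk4 was not tested. Exons of Camk4 share 72 bases with the antisense gene 2310026I22Rik, 2.21% of their length.

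**Figure D2:**
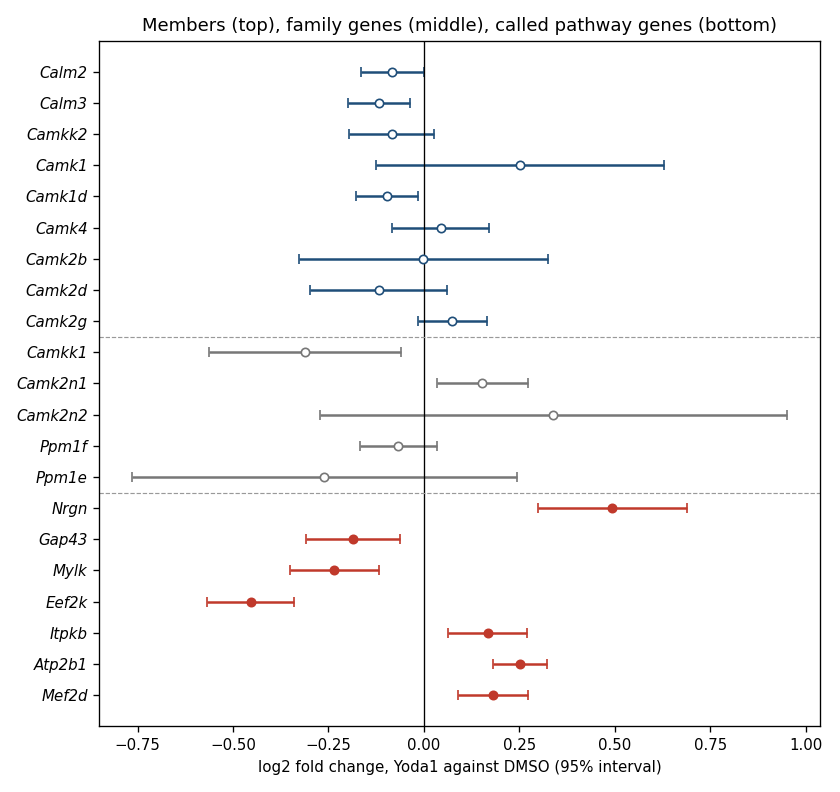
Log2 fold change of Yoda1 against DMSO (horizontal axis) with its 95% interval for the 9 genes of the set (blue, top), family genes outside it (grey, middle) and the pathway genes past the threshold (red, bottom), from edgeR over 4 libraries a group. Filled points passed an adjusted p of 0.05, and no point of the set is filled.

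Levels were compared between genes as CPM per kb of the longest annotated transcript, averaged over all 8 libraries. Calm2 was the highest of the set at 149 ± 7.73 CPM per kb (SD, n = 8). Per length it stood above 97.0% of the tested genes whose symbol matched 1 gene model. Camk4 at 103 ± 7.33 and Calm3 at 91.3 ± 5.40 CPM per kb came next, and their ranges over libraries overlapped, so that their order was not resolved. Camk2g followed at 27.1 ± 1.42, Camk1d at 20.7 ± 1.07, Camkk2 at 9.97 ± 0.669 and Camk2d at 2.77 ± 0.292 CPM per kb. With this length none of these ranges overlapped its neighbour. Camk1 at 1.18 ± 0.224 and Camk2b at 0.957 ± 0.154 CPM per kb closed the order with overlapping ranges. With the union of all exons as the length, Camk1d stood before Camk2g. Calm3 and Camk4 then had almost equal means of 86.3 and 86.1 CPM per kb, and their order was again not resolved. The other places were as given. With the principal transcript as the length, added after seeing the data, the order of means was unchanged. Camkk2 then stood at 17.6 CPM per kb, much closer to Camk1d at 20.7.

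**Figure D3:**
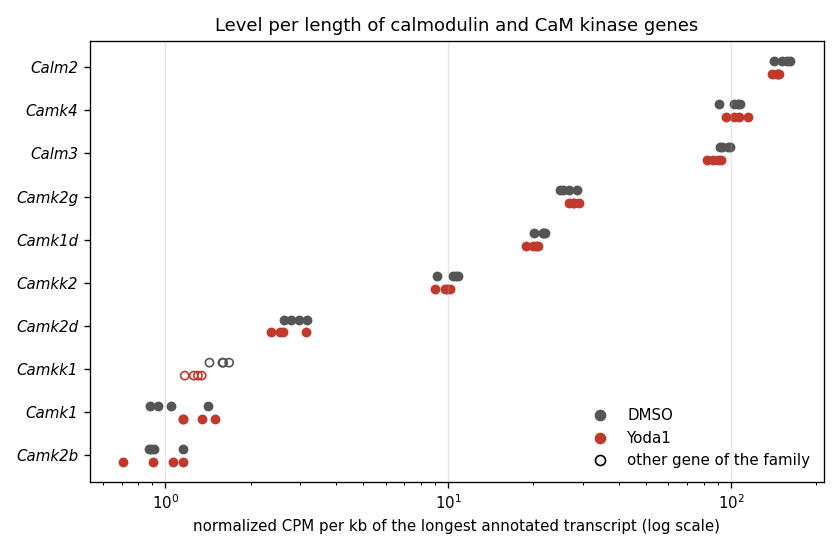
Normalized CPM per kb of the longest annotated transcript on a log axis, with 1 point a library (grey DMSO, red Yoda1, open circles for genes of the family outside the set), for the 9 genes and Camkk1. Means over 8 libraries run from 0.957 for Camk2b to 149 for Calm2 within the set, while DMSO and Yoda1 points of a gene lie close together.

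Within a library, the share of each gene in its family does not depend on the scaling between libraries. Of the level per length of CaMKII, Camk2g made up 87.2% ± 0.702 with DMSO and 88.4% ± 1.28 with Yoda1, Camk2d 9.57% ± 1.03 and 8.46% ± 0.763, and Camk2b 3.17% ± 0.298 and 3.03% ± 0.540 (SD, n = 4 each). Camk2a, with 0 to 3 counts a library, was at most 0.147% in any library. Of CaMKI and CaMKIV together, Camk4 made up 81.9% ± 0.580 and 83.1% ± 0.921, Camk1d 17.2% ± 0.514 and 15.9% ± 0.901, and Camk1 0.864% ± 0.187 and 1.02% ± 0.0649. Of the kinase kinases, Camkk2 made up 86.6% ± 1.29 with DMSO and 88.4% ± 0.247 with Yoda1, with ranges that just met (85.2% to 88.2% and 88.2% to 88.7%). The ranges of the groups overlapped for each of these genes of the set. The smaller shares turned on the length used. With the union of all exons, Camk2d made up 4.33% with DMSO and 3.81% with Yoda1, Camk1 0.409% and 0.484%, and Camkk2 74.4% and 77.3%.

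**Figure D4:**
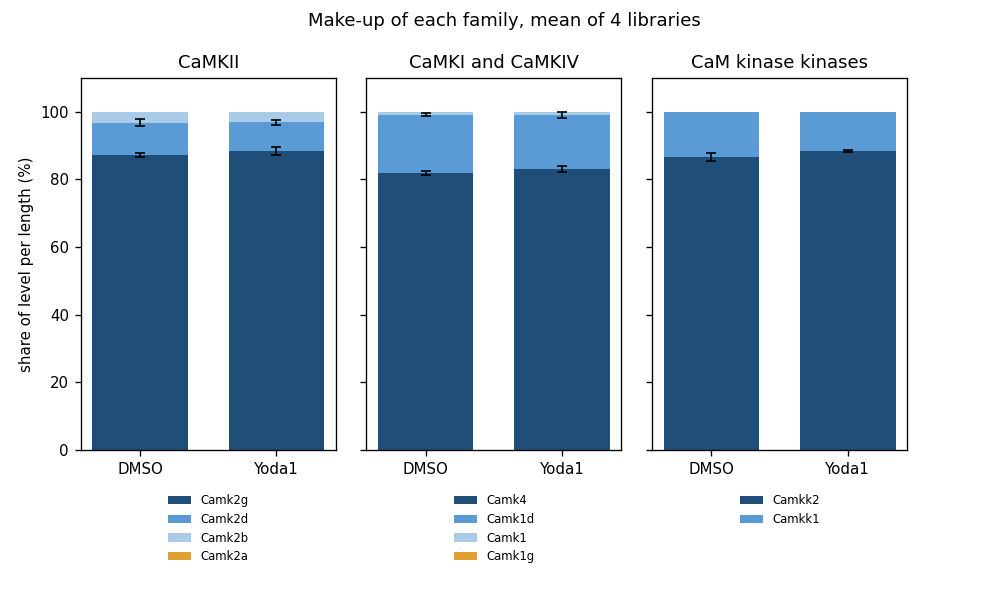
Share of each gene in the level per length of its family (vertical axis, %), as the mean of 4 libraries for DMSO and for Yoda1, with bars for the SD of the segment below them. Camk2g, Camk4 and Camkk2 hold the largest segment of their families in both groups.

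Other genes of the family outside the set were read from lists by role. Calm4 and Calm5 had 0 counts and Calml3 and Calml4 at most 1, and of the kinase genes Camk1g had at most 4, Pnck at most 2 and Camkv at most 1 count in any library. A count of 0 allows up to 3 counts a library, and these limits cover counting error only. Camk2n1, an inhibitor protein of CaMKII, was at 43.1, 42.9, 36.8 and 39.0 CPM with DMSO and 47.9, 44.1, 46.9 and 42.2 CPM with Yoda1, with a log2 change of 0.15 (SE 0.058, edgeR adjusted p of 0.0878), and it passed without DMSO library 1 (edgeR adjusted p = 0.0391). Camk2n2, the related inhibitor, had 10 to 26 counts and a log2 change of 0.34 (SE 0.30, edgeR adjusted p of 0.523). The CaM kinase phosphatase gene Ppm1f was at 46.7 ± 0.426 CPM with DMSO and 44.4 ± 1.96 CPM with Yoda1 (SD, n = 4 each). Its groups did not overlap, as for 15.5% of all genes tested, which by itself gives the exact permutation p of 0.0286. The log2 change of Ppm1f was -0.067 and did not pass (edgeR adjusted p of 0.430). Its relative Ppm1e was at a log2 change of -0.26 (edgeR adjusted p of 0.556). None of these regulators of the CaM kinases passed the test.

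Over a list of 60 other genes of the pathway, 36 could be tested, of which 4 passed as higher and 3 as lower with Yoda1. That is 19.4% of those tested, against 10.9% of all genes, and the median log2 fold change was 0.0062. The lists were chosen with earlier results of these data known and no set test was run, so these shares are a description only. The lists are those of calmodulin buffers (4 tested), kinase inhibitors and phosphatases (4), other calmodulin-regulated kinases (9), calmodulin-regulated enzymes, pumps and channels (7), substrates and downstream genes (11), and other CaM kinase genes (1). The 7 calls were spread over 4 of these lists.

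Eef2k, the calmodulin-dependent kinase that phosphorylates translation elongation factor 2 and was once named CaMKIII, was at 44.3, 44.4, 42.8 and 45.7 CPM with DMSO and 29.6, 32.1, 32.3 and 34.6 CPM with Yoda1, so that every Yoda1 library was below every DMSO library. It fell by 27.0%, with a log2 change of -0.45 (SE 0.056, edgeR adjusted p of 9.11e-07). Mylk, the calmodulin-activated myosin light chain kinase, was at 46.1, 55.0, 54.7 and 52.8 CPM with DMSO and 43.4, 47.9, 41.8 and 44.1 CPM with Yoda1 and fell, with a log2 change of -0.23 (SE 0.057, edgeR adjusted p of 0.00676). The exact permutation test for Mylk gave p = 0.0571, as Yoda1 library 2 overlapped the lowest DMSO library. Itpkb, a calmodulin-activated kinase of inositol trisphosphate, was at 56.0, 67.3, 61.1 and 60.9 CPM with DMSO and 71.6, 71.3, 66.7 and 66.5 CPM with Yoda1, and it rose with a log2 change of 0.17 (SE 0.051, edgeR adjusted p of 0.0301). Its call was lost in 8 of 15 alternatives, DESeq2 among them (adjusted p = 0.0531).

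Nrgn, neurogranin, a protein that holds calcium-free calmodulin, was at 11.9, 10.4, 9.27 and 11.8 CPM with DMSO and 13.2, 14.2, 16.9 and 16.3 CPM with Yoda1. Every Yoda1 library was above every DMSO library, and the log2 change was 0.49 (SE 0.096, edgeR adjusted p of 0.000705). Gap43, another calmodulin-holding protein of the same kind, moved the other way, from 38.8 ± 1.84 to 34.1 ± 2.77 CPM (SD, n = 4 each), with a log2 change of -0.19 (SE 0.060, edgeR adjusted p of 0.0448), and it lost its call in 8 of 15 alternatives, DESeq2 among them (adjusted p = 0.0856). Of the pumps, Atp2b1, a plasma membrane calcium pump that calmodulin activates, rose from 251, 256, 259.7 and 261 CPM with DMSO to 309.6, 315, 302 and 298 CPM with Yoda1, all 4 above all DMSO libraries, with a log2 change of 0.25 (SE 0.035, edgeR adjusted p of 6.58e-06). Among downstream genes Mef2d, a transcription factor controlled by CaM kinases through class II histone deacetylases, rose from 65.3 ± 1.98 to 73.9 ± 3.28 CPM (SD, n = 4 each), with a log2 change of 0.18 (SE 0.045, edgeR adjusted p of 0.00805), and its groups did not overlap. Eef2k, Mylk, Nrgn, Atp2b1 and Mef2d kept their call in all 15 alternatives.

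**Figure D5:**
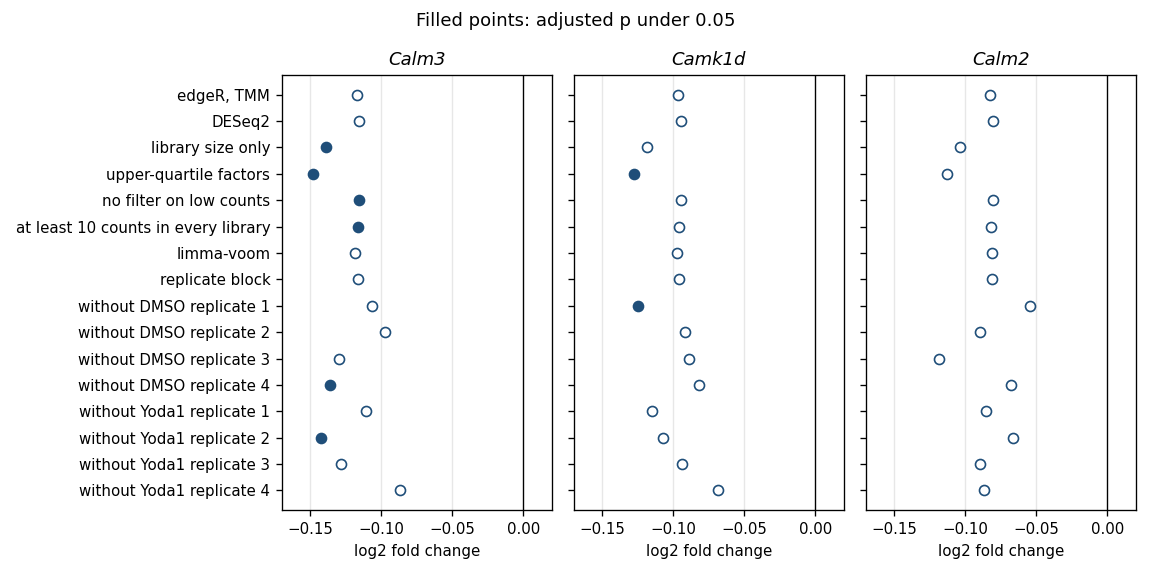
Log2 fold change of Yoda1 against DMSO (horizontal axes) for Calm3, Camk1d and Calm2 under edgeR with TMM (top) and each of 15 alternatives, filled where the adjusted p was under 0.05. All points are below 0, and filled points are 6 of 15 alternatives for Calm3, 2 of 15 for Camk1d and 0 of 15 for Calm2.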

How the data were processed

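For each of the 8 libraries the authors deposited raw whole-number read counts per gene symbol, without normalization. Libraries were made from poly(A)-selected RNA with a directional kit. The submitters' processing notes name TopHat and mm10, and the methods of the paper list quality control in FastQC, read processing with FASTX Trimmer and BBMap, expression analysis with Cufflinks and a search for changed genes with Cuffdiff. Tool versions, gene annotation and strand setting are not given in the sources used here, so reads on overlapping genes of opposite strands may be split or shared.

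Genes were filtered with filterByExpr (minimum count 10, minimum total count 15) and scaled with TMM. The TMM factors were 1.003 to 1.010 with DMSO and 0.988 to 0.997 with Yoda1, without overlap. Genes were tested in R 4.3.3 with the robust quasi-likelihood test of edgeR 4.0.16. All 8 libraries were in the fit, without a covariate, and Benjamini-Hochberg adjustment ran over 12239 genes at 0.05. The code was first tested on simulated data. CPM are counts per 1000000 of the TMM-scaled library, and depth (12438009 to 19534653 counts) sets their counting error. Within groups every pair of libraries differed by more than sampling noise (chi-square per gene 2.02 to 6.66), so none was merged. Single genes were also compared by a two-sided exact permutation test of log2 CPM (SciPy 1.17.1). GENCODE M21 (GRCm38) gave lengths, positions and sequences, 22110 of the 23183 symbols (95.4%) matching 1 gene model each, and proteins translated from it were aligned with Biopython 1.88.

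As alternatives, the test was run with DESeq2 1.42.0 and with limma-voom (limma 3.58.1), the scaling by library size only and by upper-quartile factors, and the filter either dropped or set to at least 10 counts in every library. The replicate number was also used as a block, each library was left out in turn and, for levels, exon-union length was used. The principal transcript length and counts without length were added after seeing the data. The members, gene lists and marker lists were chosen with earlier results of these data known. Named genes are the 9 members, the family genes (other calmodulin and CaM kinase genes, inhibitors and phosphatases), pathway genes past the threshold, and the 3 genes most correlated with the member of smallest p. The marker genes named were chosen after their values were seen. Some genes of the family and marker lists, and the make-up of the calmodulin transcripts, are not reported here.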

Additional observations from a re-analysis of the deposited data

Results flagged for a closer look

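Of 42 groups of 4 libraries (21 genes with enough counts, 2 groups each), 2 held a library that stood far from the other 3 by Dixon's test, where chance flags about 1 in 20. Camk2b in DMSO library 1 was at 4.76 CPM, and the next library of that group was at 3.77 CPM. Ppm1f in Yoda1 library 1 was at 41.5 CPM, and the next library of that group was at 45.3 CPM.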

How the results depend on the processing

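Of 135 values for the 9 members under the 15 alternatives, 121 kept their direction and side of the threshold, 8 crossed it and 6 changed sign. No member was called higher under any alternative. The number called lower was 0 with edgeR and TMM. With library size only it was 1 of 9, where 1362 of all 12239 genes tested were called in either direction. It was 1 with no filter on low counts (1491 of 17504 genes) and 1 with at least 10 counts in every library (1354 of 11629). With upper-quartile factors it was 2 (1463 of 12239 genes). It ran from 0 to 1 with each library left out in turn (893 to 1484 genes). Calm3 and Camk1d were the members called. The median log2 fold change of all genes was -0.027 with library size only and -0.036 with upper-quartile factors. With the replicate number as a block (replicate block) no member was called, Calm3 had an adjusted p of 0.0771 and 966 genes were called in place of 1331. The labels tie the numbers to nothing shared, and same-numbered libraries deviated together with correlations of -0.028 to 0.071. Only 3 of 8 libraries correlated best with their own number. Camk4 changed sign without DMSO library 1 (-0.0057) and without Yoda1 library 2 (-0.0010), in a range of -0.0057 to 0.087. Camk2b changed sign with no filter on low counts (0.00079), and with libraries left out ran from -0.084 to 0.11. It was 0.10 without DMSO library 1, 0.030 without Yoda1 library 2 and 0.11 without Yoda1 library 3. With libraries left out Camk1 ran from 0.17 to 0.43, Camk2d from -0.20 to -0.071, Camkk2 from -0.13 to -0.051, Camk2g from 0.044 to 0.11 and Calm2 from -0.12 to -0.055. The cause was not tested.

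Of 36 pathway genes tested, or 54 with no filter on low counts, 3 to 4 were called higher and 2 to 4 lower over the alternatives. Over all genes tested, the calls in either direction ran from 893 of 12306 (without Yoda1 library 4) to 1491 of 17504 (no filter on low counts). With exon-union length the share of Camk2g in CaMKII was 93.3%. By counts without length, added after seeing the data, it was 83.8%. Levels per kb of exon union were 122 CPM for Calm2, 86.3 for Calm3, 86.1 for Camk4, 19.4 for Camk1d and 15.7 for Camk2g. They were 4.44 CPM for Camkk2, 0.681 for Camk2d, 0.474 for Camk1 and 0.433 for Camk2b. Camk1 and Camk2b had at most 85 counts a library, and this limits their intervals.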

Other observations

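Over the 8 libraries, the tested genes whose log2 CPM was most like that of Calm3 were Psap (Pearson's r = 0.977), Usp27x (r = 0.962) and Zfp82 (r = 0.945). Each r is a description over 8 points that share library and depth, chosen as the highest among all genes tested. These genes did not pass the test of Yoda1 against DMSO themselves (edgeR adjusted p = 0.450 for Psap, 0.169 for Usp27x and 0.158 for Zfp82).

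Camk1 varied between DMSO and between Yoda1 libraries by 22.4% and 12.8% (coefficient of variation, n = 4 each), against 16.0% and 14.7% from counting error.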
